A study of Mus musculus with 8 samples.

Results

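H3K9ac, acetylation of lysine 9 of histone H3, was compared between fed mice given tetracycline and fed mice left without it. The comparison used 2 of the 8 samples of the series and 4 of its 16 peak lists, the lists numbered 1 and 2 of Fed_(+Tetra) and of Fed_(-Tetra). Overlapping peaks of the 4 lists were merged into 101090 regions, and the regions and genes marked in both lists of one state and in neither list of the other were described. They are called tetracycline-only and untreated-only regions or genes here. The choice used only which lists held a peak, so the size of these classes is a count with no test of its own.

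Both groups were C57BL/6J males of 9 weeks, and neither was fasted. The tetracycline group had received the antibiotic for 21 days, and the other group had not. Small intestinal crypts were isolated with EDTA, broken up into single cells with trypsin and profiled by CUT&Tag, in which an antibody guides a transposase to the marked chromatin and the tagged fragments are sequenced. The series also holds mice fasted for 24 h and a second mark, H3K27ac, and those lists served here as readouts that the choice did not use. Whether the fed H3K27ac and H3K9ac lists came from the same crypts is not given. Each group had 1 sample with 2 lists. The labels do not say how many mice were used or whether lists 1 and 2 came from different mice, so the spread between lists may be technical.

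H3K9ac is laid down on active promoters and some enhancers, in part by the acetyltransferases GCN5 and PCAF, and it is removed by histone deacetylases. Crypts hold the stem cells, progenitors and Paneth cells of the small intestine. Tetracycline blocks bacterial protein synthesis and so reduces gut bacteria. Bacteria induce defence genes in the gut epithelium, and they make short-chain fatty acids, which feed acetyl-CoA and inhibit deacetylases.

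Promoters are shown here for 4 genes whose start site lay under an H3K9ac peak in both fed lists of one state and in no fed list of the other. For contrast, a promoter is shown that was under a peak in all 4 lists although the rule called its gene. Each sequence is 300 bases from RefSeq (GRCm38.p6), 5′ to 3′, from 250 bases before the start site to 50 after it. Capitals mark matches on either strand to the CCAAT box, the GC box GGGCGG, the TATA box TATAAA, the cAMP response element TGACGTCA and the NF-kB and HNF4 motifs. Matches of different motifs may share bases. The promoters of Bax, covered in 1 list, and AB124611, covered in none, are not shown. Prss36, a serine protease gene (chr7:127946676-127946975, minus strand), was tetracycline-only.
Prss36: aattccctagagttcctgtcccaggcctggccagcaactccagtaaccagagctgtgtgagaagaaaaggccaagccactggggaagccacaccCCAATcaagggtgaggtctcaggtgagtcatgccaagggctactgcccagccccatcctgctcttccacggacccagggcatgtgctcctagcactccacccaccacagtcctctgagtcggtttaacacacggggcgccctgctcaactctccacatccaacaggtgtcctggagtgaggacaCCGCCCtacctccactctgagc
Wdr59, which encodes a part of the GATOR2 complex of amino acid sensing (chr8:111522058-111522357, minus strand), was untreated-only.
Wdr59: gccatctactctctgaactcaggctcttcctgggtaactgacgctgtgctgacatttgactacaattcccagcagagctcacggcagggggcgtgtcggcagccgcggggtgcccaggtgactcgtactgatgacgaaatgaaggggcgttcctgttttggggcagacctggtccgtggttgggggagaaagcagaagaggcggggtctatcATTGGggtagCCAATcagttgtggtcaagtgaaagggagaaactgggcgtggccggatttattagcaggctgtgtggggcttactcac
Hat1, the acetyltransferase of newly made histone H4 (chr2:71389010-71389309, plus strand), was untreated-only.
Hat1: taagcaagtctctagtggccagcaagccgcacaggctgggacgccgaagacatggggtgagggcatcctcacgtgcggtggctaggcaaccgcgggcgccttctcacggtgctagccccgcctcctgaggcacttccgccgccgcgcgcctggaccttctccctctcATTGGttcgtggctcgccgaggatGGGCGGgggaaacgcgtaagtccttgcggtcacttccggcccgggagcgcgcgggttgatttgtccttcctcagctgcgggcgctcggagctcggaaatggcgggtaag
Slc5a8, the sodium-coupled carrier of butyrate and other monocarboxylates (chr10:88885742-88886041, plus strand), was untreated-only.
Slc5a8: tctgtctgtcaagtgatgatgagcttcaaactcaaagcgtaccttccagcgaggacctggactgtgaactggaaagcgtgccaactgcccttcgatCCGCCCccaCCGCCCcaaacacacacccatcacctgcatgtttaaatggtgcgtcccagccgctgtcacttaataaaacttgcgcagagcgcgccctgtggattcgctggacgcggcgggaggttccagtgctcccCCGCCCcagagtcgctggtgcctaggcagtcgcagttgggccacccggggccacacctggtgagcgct
Cadps2, a gene of dense-core vesicle release (chr6:23839372-23839671, minus strand), was counted as tetracycline-only.
Cadps2: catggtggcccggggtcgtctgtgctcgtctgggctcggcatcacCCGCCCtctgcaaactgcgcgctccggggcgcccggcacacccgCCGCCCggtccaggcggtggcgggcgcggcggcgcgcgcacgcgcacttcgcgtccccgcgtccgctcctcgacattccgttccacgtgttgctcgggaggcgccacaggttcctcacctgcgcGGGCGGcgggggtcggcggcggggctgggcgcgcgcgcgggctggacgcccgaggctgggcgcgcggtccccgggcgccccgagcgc

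The H3K9ac peak of the fed tetracycline lists covered all 300 bases of the Prss36 promoter in both lists, and the untreated lists had no peak on it. At Wdr59 both untreated lists covered 300 bases, and the nearest peaks of the tetracycline lists were 14248 and 13945 bases from the start site. At Hat1 the untreated lists covered 300 and 114 bases, and the nearest tetracycline peaks were 21232 and 21190 bases away. The choice of these 3 promoters required that they be bare in both fed lists of the other state. At Prss36 the nearest untreated peaks were 2555 and 10052 bases from the start site. In fasted mice the 3 promoters were not bare in the other state. Hat1 had 300 bases covered in both tetracycline lists, Wdr59 300 bases in tetracycline list 1 and Prss36 300 bases in untreated list 1. At Slc5a8 both untreated lists covered all 300 bases, and the nearest tetracycline peaks were 59047 and 7133 bases away. The Cadps2 promoter lay under a peak in all 4 lists, with 248 and 300 bases covered without tetracycline and 300 and 300 with it. Its gene was called because the annotated gene end lies upstream of this start site and only the tetracycline peaks reached within 1 kb of that end. H3K27ac lay on the Prss36, Wdr59 and Cadps2 promoters in all 4 fed lists.

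The sequence of the called promoters was described with the 17492 of 21887 protein-coding genes that have a RefSeq promoter. The median GC content was 58.3% in 127 tetracycline-only promoters, 60% in 143 untreated-only promoters, 61.7% in genes marked in all 4 lists and 48% in genes marked in none. A CpG content above 0.6 of that given by base composition was found in 50.4% of tetracycline-only and 58.0% of untreated-only promoters, against 79.6% where all 4 lists had a mark and 18.2% where none had. Both called classes therefore lay between the constantly marked and the unmarked genes. Over all promoters the 2 values were 56.3% and 48.3%, close to those of the tetracycline-only promoters. GGGCGG was present in 49.6% of tetracycline-only, 58.0% of untreated-only and 46.3% of all promoters. CCAAT was present in 33.1%, 42.7% and 39.0%. The NF-kB motif was present in 7.09%, 4.20% and 4.60%. TATAAA was present in 5.51%, 4.90% and 13.3% of the same 3 sets, and TGACGTCA in 0.787%, 3.50% and 2.34%. The HNF4 motif was in none of the called promoters and in 0.217% of all. These matches are letters in a window, and no binding was measured.

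Across the genome, the extent of H3K9ac did not separate the 2 states. The untreated lists held 17249 and 51552 peaks and the tetracycline lists 24643 and 54158. Covered length was 16.5 and 38.9 Mb without tetracycline and 21.5 and 37.7 Mb with it. Lists numbered 2 held more than lists numbered 1 in either state, and the states overlapped. The mean difference in peak number was 0.29 on the log2 scale (pooled SD between lists 0.97, n = 2 lists per state, exact two-sided permutation p = 0.667, adjusted p = 1 over 5 tests). Within list number 1 it was 0.51 and within number 2 it was 0.071. For covered length the log2 difference was 0.17 (0.38 and -0.047 within numbers, SD 0.74, exact permutation p = 1). With 2 lists against 2, there are 6 arrangements and no p under 0.333 is possible.

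The share of peaks within 1 kb of a gene end was 48.8% and 23.2% without tetracycline and 36.7% and 21.3% with it, a difference of -7.03 percentage points (SD 15.0, exact permutation p = 0.667). Marked genes are those with a peak no more than 1 kb from either end. Of 21887 protein-coding genes, 9005 and 11312 were marked without tetracycline and 9425 and 10826 with it. The log2 difference in this number was 0.0012 (0.066 and -0.063 within numbers, SD 0.19, exact permutation p = 1). In the 7780 regions found in all 4 lists, the median covered length was 1170 and 1540 bp without tetracycline and 1219.5 and 1453 bp with it. The log2 difference was -0.012 (SD 0.24, exact permutation p = 1). In 839 of these regions (10.8%) the tetracycline lists were both wider than the untreated lists, and in 1050 (13.5%) both were narrower.

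**Figure D1:**
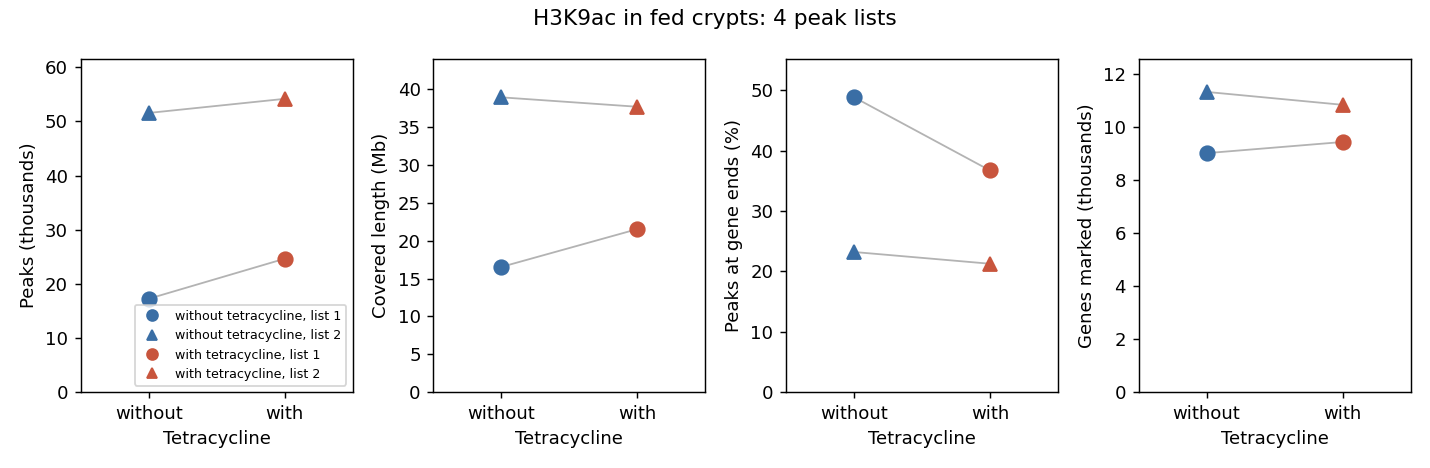
Number of peaks, covered length, share of peaks within 1 kb of a gene end and number of marked genes in the 4 fed H3K9ac lists, each point 1 list and each line a pair of lists with the same number. Lists numbered 2 held 51552 and 54158 peaks and lists numbered 1 held 17249 and 24643, so the list number separated the points in every panel and tetracycline in none.

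State did not order the overlap of lists either, given as the Jaccard index, the bases covered by both lists over those covered by either. The highest index was 0.352, between the number 1 lists of the 2 states. It was 0.273 between the 2 untreated lists and 0.265 between the 2 tetracycline lists. The other pairs across states gave 0.296, 0.256 and 0.282, the last between the number 2 lists. The mean was 0.269 within a state and 0.296 between states. Lists of the same state were therefore no more alike than lists of different states.

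Markers of the labelled cells were checked in the same lists. Of 12 epithelial identity genes, 10 and 12 were marked without tetracycline and 11 and 12 with it. Of 12 genes of stroma and vessels, 0 and 2 were marked without it and 0 and 0 with it. Of 10 genes of other tissues, 1 and 1 were marked without it and 1 and 3 with it, and Sftpc, a lung surfactant gene, was marked in all 4 lists. Depth is unknown for all lists.

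Tetracycline-only regions numbered 1076, which was 1.06% of all regions, and untreated-only regions numbered 788, or 0.78%. Most regions, 80226 (79.4%), had a peak in a single list. Just outside the rule, 2579 regions had a peak in both tetracycline lists and 1 untreated list, and 2071 had the reverse. A peak in 1 tetracycline list alone was found at 44513 regions and in 1 untreated list alone at 35713. The rule thus took a small part of the list-to-list variation in either direction.

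Tetracycline-only regions had a median width of 813.5 bp, and 159 of them (14.8%) lay within 1 kb of a gene end, 573 (53.3%) inside genes and 344 (32.0%) between genes. Untreated-only regions had a median width of 870 bp, with 203 (25.8%) at gene ends, 365 (46.3%) inside genes and 220 (27.9%) between genes. Regions found in all 4 lists had a median width of 1768 bp and lay at gene ends in 78.6%. The 8434 regions in exactly 2 of the 4 lists, which include both classes, had 852 bp and 19.1%. All regions had 520 bp and 15.0%. Members of both directions were weak peaks beside the regions of all 4 lists. The median score percentile of tetracycline-only regions was 40.5 and 53.4 within the 2 tetracycline lists, where the regions shared by all 4 lists stood at 80.9 and 91.5. For untreated-only regions the medians were 31.7 and 57.0, against 74.1 and 91.0. Regions in exactly 2 lists stood at 42.2 and 53.4 in the tetracycline lists and at 31.3 and 55.4 in the untreated lists. The called regions thus ranked much like other regions of 2 lists.

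The fed H3K27ac lists, which the rule did not use, were then read at these regions. A peak was present at 50.9% and 66.5% of tetracycline-only regions without tetracycline and at 54.3% and 67.3% with it. At untreated-only regions it was present at 59.6% and 65.6% without tetracycline and at 49.1% and 65.1% with it. The mean shares thus differed by 2.04 percentage points at the first class and -5.52 at the other, tetracycline minus untreated, against -0.12 over the 8434 regions with a peak in any 2 of the 4 H3K9ac lists, which include both classes. The list 1 values moved with the H3K9ac direction in both classes, while the list 2 values were within 1 point of each other. H3K27ac was in both tetracycline lists and neither untreated list at 9 of the 1076 tetracycline-only regions, and the reverse held at 1. At the 788 untreated-only regions, 24 had it in both untreated lists and neither tetracycline list, and 10 had the reverse. These are 0.836% and 3.05% of the members for H3K27ac of the same state. Over the regions found in any 2 H3K9ac lists the same 2 patterns made up 0.925% (tetracycline) and 1.15% (untreated), and over all regions 0.364% and 0.572%. The tetracycline-only share thus lay near that of the regions in any 2 lists. In all 4 fed lists H3K27ac was present at 468 tetracycline-only and 331 untreated-only regions.

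H3K9ac of fasted mice gave a different pattern. At tetracycline-only regions a peak was present at 29.6% and 25.2% without tetracycline and at 37.4% and 30.1% with it, a mean difference of 6.32 percentage points, and the states did not overlap. The difference over regions with a peak in any 2 fed lists was 4.94 points and over all regions 1.37 points. Over the regions of any 2 fed lists the states did not overlap either. There the shares were 31.7% and 29.9% without tetracycline and 38.5% and 33.0% with it. At untreated-only regions the shares were 36.5% and 35.4% without tetracycline and 41.8% and 33.5% with it, a difference of 1.65 points. Fasted lists thus held more of these regions on average with tetracycline in both classes.

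**Figure D2:**
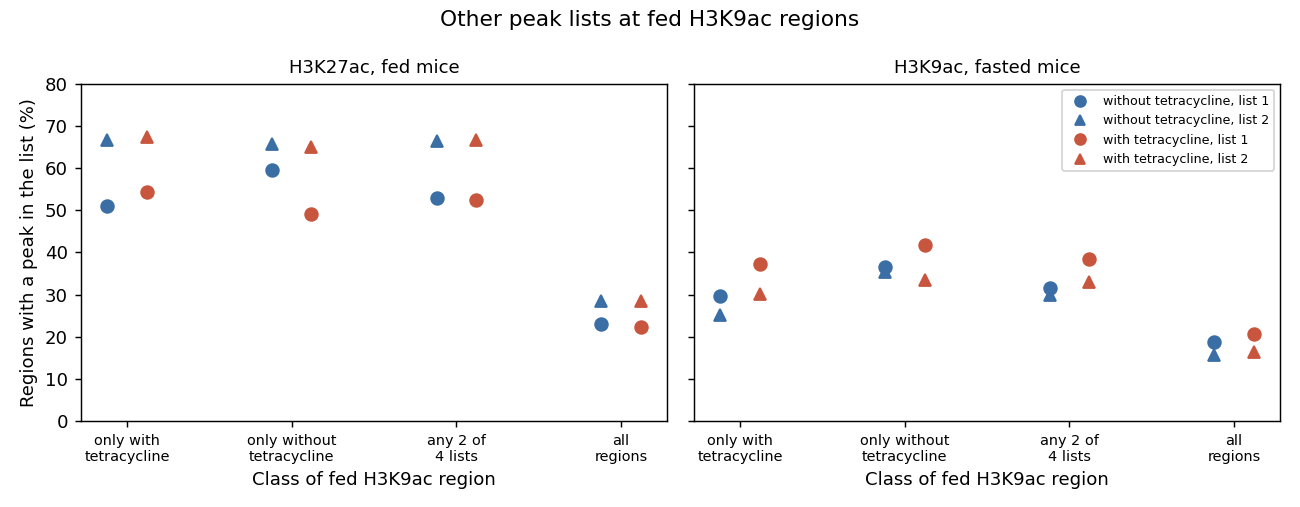
Share of fed H3K9ac regions (%) with a peak in each H3K27ac list of fed mice (left) and each H3K9ac list of fasted mice (right), for 1076 tetracycline-only regions, 788 untreated-only regions, the 8434 regions with a peak in any 2 lists and all 101090 regions, each point 1 list. In the left panel the lists numbered 1 part in opposite directions at the first and second class, while the lists numbered 2 lie together near 66%.

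Away from gene ends there were 917 tetracycline-only and 585 untreated-only regions. The tetracycline-only region of highest score rank was chr15:76542153-76543329 (GRCm38), inside Slc52a2, a riboflavin transporter gene. The untreated-only region of highest rank was chr4:134081491-134082594, inside Crybg2, and it also had a peak in both untreated and no tetracycline list of fasted mice. H3K27ac lay on these regions in all 4 fed lists. H3K27ac in both fed lists of the same state and neither of the other was found at 7 of the tetracycline-only regions (0.763%) and 16 of the untreated-only regions (2.74%). Away from gene ends, these patterns made up 0.777% and 0.996% of the regions found in any 2 lists and 0.328% and 0.521% of all. The highest ranked among them were chr6:117611872-117612842, 228 kb from Zfp637, and chr13:62623832-62624486 inside 6720489N17Rik. A region inside Limk1, the LIM kinase of actin control, followed in the untreated-only set (chr5:134677289-134678942).

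At gene ends, 160 genes were tetracycline-only, 0.731% of all protein-coding genes, and 179 were untreated-only, 0.818%. Another 1013 genes were marked in both tetracycline lists and 1 untreated list, and 1153 the other way round. All 4 lists marked 7166 genes and none marked 8587. A peak can lie at the ends of several genes, and 8 of the 160 and 20 of the 179 genes shared a region with another gene of the same direction. Both lists of the state met in 1 merged region at 110 of the 160 and 157 of the 179 genes, and at the other 50 and 22 they marked different regions at the gene ends.

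Among the untreated-only genes with the highest score ranks, Carm1, an arginine methyltransferase of histones (chromosome 9, 21546894 to 21589467), had 2149 and 2693 bp of H3K9ac within 2.5 kb of its ends without tetracycline and 0 and 0 bp with it. Its neighbour AB124611 was called through the same region. Mex3b, which encodes an RNA-binding protein, had 2145 and 2085 bp without tetracycline and 0 and 0 bp with it. H3K27ac marked Carm1 and Mex3b in all 4 fed lists. Hat1 had 839 and 968 bp without tetracycline and 0 and 287 bp with it, and H3K27ac in the number 1 list of each state. Trmt5, a tRNA methyltransferase gene, and its neighbour Slc38a6 also shared a region. Dnajc5 had 1452 and 1548 bp without tetracycline and 902 and 1286 bp with it, so the distance limit of 1 kb decided its call.

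Among the tetracycline-only genes, Med6, a subunit of Mediator (chromosome 12, 81573557 to 81595008), had 0 and 0 bp without tetracycline and 760 and 900 bp with it. Pfas, an enzyme of purine synthesis, had 0 and 0 bp without it and 704 and 599 bp with it. Fsip1 had 0 and 0 bp without it and 836 and 682 bp with it. All 3 were bare in both untreated lists within the wider distance. Bax, which promotes apoptosis, had 1090 and 1042 bp without tetracycline and 3199 and 2411 bp with it, and its own start site lay under a peak only in tetracycline list 1. The other tetracycline list was counted through a region at the opposite gene end that had a peak in every fed list. Within 2.5 kb both untreated lists marked Bax too, so the distance limit of 1 kb decided its call. Prss36 had 0 and 630 bp without tetracycline and 960 and 1410 bp with it. Ripply2 had 1228 and 1237 bp without it and 1108 and 1383 bp with it, a further call decided by the distance limit.

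Few called genes showed the same separation in other lists, though at larger shares than over all genes. The opposite pattern mostly exceeded its share over all genes as well. H3K27ac in at least 1 fed list of the same state and in no fed list of the other was counted first. It was found at 11 of the 160 tetracycline-only genes (6.88%) and 26 of the 179 untreated-only genes (14.5%). The opposite pattern was found at 6 (3.75%) and 12 genes (6.70%). Over all genes, 479 (2.19%) had the tetracycline pattern and 748 (3.42%) the untreated one. With both lists of the same state required, the counts were 3 (1.88%) and 6 (3.35%). The opposite pattern then held at 1 (0.625%) and 4 genes (2.23%), against 81 (0.370%) and 162 (0.740%) over all genes. Ldlrad3, a member of the LDL receptor family (chromosome 2, 101950201 to 102186460), was among the 3 tetracycline-only genes. It had 0 and 0 bp of H3K9ac without tetracycline and 780 and 870 bp with it. It was also marked in both fasted tetracycline lists and in no fasted untreated list. Chpf, an enzyme of chondroitin synthesis, had 1237 and 1705 bp without tetracycline and 0 and 0 bp with it, and H3K27ac in both untreated lists alone. Atxn10 behaved alike, with 780 and 1040 bp without tetracycline and 0 and 0 bp with it.

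In fasted mice, H3K9ac in both lists of the same state and neither of the other was found at 10 of the 160 genes (6.25%). It was found at 9 of the 179 (5.03%). The opposite pattern was found at 6 (3.75%) and 7 genes (3.91%). Over all genes, 471 (2.15%) had the tetracycline pattern and 298 (1.36%) the untreated one. Among the tetracycline-only genes with the same pattern were Dppa3, a factor of the early embryo, with 0 and 0 bp in fed mice without tetracycline and 1027 and 863 bp with it. Dscc1, a factor of sister chromatid cohesion, had 0 and 691 bp without it and 800 and 698 bp with it. Among the untreated-only genes, Plcg2, a phospholipase of immune and tuft cells, had 812 and 1285 bp without it and 0 and 0 bp with it. Coil, which encodes coilin of Cajal bodies, had 1060 and 768 bp without it and 0 and 0 bp with it, but within 1 kb the untreated lists marked opposite ends of the gene (list 1 at chr11:88991166-88991592 and list 2 at chr11:88973692-88974459) and shared no region. Coro1a, a coronin of leukocytes, had 1063 and 2762 bp without tetracycline and 0 and 554 bp with it.

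Defence genes that bacteria induce in the gut were counted next. Of 22 such genes, 6 and 10 were marked without tetracycline and 5 and 4 with it. Without tetracycline the marked shares were 27.3% and 45.5%, and with it 22.7% and 18.2%, where all genes stood at 41.1% and 51.7% without it and 43.1% and 49.5% with it. More untreated than tetracycline lists marked 6 of the 22 genes, and more tetracycline lists marked 1, Duox1. Over all genes these counts were 2541 and 2494. The mean number marked was 8 without tetracycline and 4.5 with it, a difference of -3.5 genes (SD 2.06), and the states did not overlap. The difference was -1.5 without untreated list 2 and -5.5 without untreated list 1. The states met or overlapped when only the upper 0.5 of peaks by score (-2), only peaks of at least 500 bp (-2.5) or only start sites (-2.5) were used, alternatives chosen after seeing the data. Under the main rule, the states parted for the defence genes and the immune cell markers alone among the 18 gene lists. With 2 lists against 2, a full parting in either direction makes up 0.333 of the arrangements. The gene lists were chosen with earlier results of these data known. In bulk crypts, fewer cells of a type and less mark per cell cannot be told apart.

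Nos2, the inducible nitric oxide synthase (chromosome 11, 78920787 to 78960226), had 678 and 1511 bp of H3K9ac without tetracycline and 0 and 0 bp with it. Nfkbiz, the NF-kB cofactor IkappaB-zeta (chromosome 16, 55811375 to 55838954), had 473 and 585 bp without it and 0 and 0 bp with it. Both genes were untreated-only. The best peak of Nos2 stood at the 15.5 percentile of score in untreated list 1 and 86.9 in list 2, and that of Nfkbiz at 23.2 and 2.11, so each had at least 1 low-ranked peak. With the 17249 top peaks of each list, Nos2 was still marked in both untreated lists and no tetracycline list, while Nfkbiz was marked in untreated list 1 alone. H3K27ac marked Nos2 in all 4 fed lists, and H3K27ac marked Nfkbiz in tetracycline list 2 alone.

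Duox2, the oxidase that makes hydrogen peroxide at the epithelial surface (chromosome 2, 122279246 to 122298740), had 0 and 2449 bp without tetracycline and 0 and 0 bp with it. Duoxa2, the maturation factor next to it, had 0 and 3283 bp without it and 0 and 0 bp with it. The genes share peaks between them. Counted as 1 locus, an alternative chosen after seeing the data, they left 6 and 9 of 21 defence loci marked without tetracycline and 5 and 4 with it, a difference of -3, with 5 loci marked in more untreated lists and 1 in more tetracycline lists. Their H3K9ac rested on untreated list 2, while H3K27ac marked both genes in both untreated lists and in no tetracycline list of fed mice. In fasted mice H3K9ac marked Duox2 in both untreated lists and in tetracycline list 2.

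Of the other defence genes, some were marked in every list, some in none and some in untreated list 2 alone. Pigr, the carrier of secretory antibodies, had 2140 and 2815 bp without tetracycline and 1613 and 2959 bp with it. Tnfaip3, a brake on NF-kB, and Il18 were also marked in all 4 lists. Reg3b and Reg3g, antibacterial lectins of the crypt-villus epithelium, were marked in none of the 4 fed H3K9ac lists. Ccl28 and Lcn2 were marked in untreated list 2 only, as Duox2 and Duoxa2 were. All of these count among the 6 genes marked in more untreated lists. In fasted mice, 9 and 12 of the 22 genes had H3K9ac without tetracycline and 11 and 8 with it, and the states overlapped. Fed H3K27ac marked 11 and 10 without it and 8 and 9 with it.

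**Figure D3:**
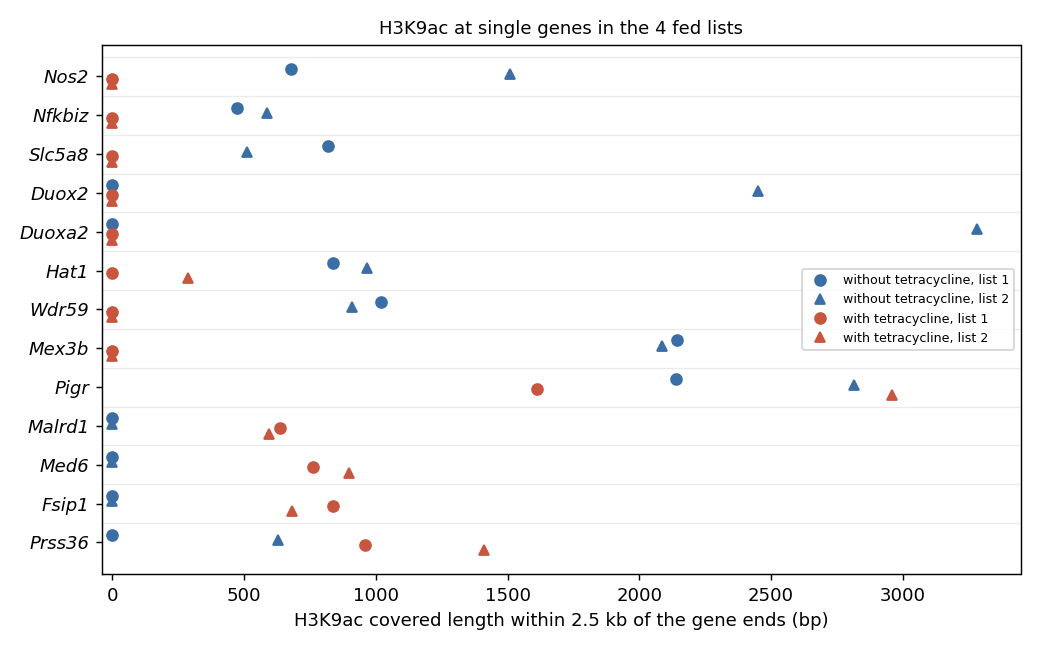
H3K9ac length within 2.5 kb of the gene ends (bp) at 13 genes in the 4 fed lists, each point 1 list. Nos2, Nfkbiz, Slc5a8, Wdr59 and Mex3b stand at 0 in both tetracycline lists, Duox2 and Duoxa2 have a value in untreated list 2 alone, Pigr has a value in every list, and Malrd1, Med6 and Fsip1 stand at 0 in both untreated lists.

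Genes of antigen presentation and immune cells were given beside them. Of 12 genes of MHC class II and its regulation, H3K9ac marked 3 and 7 without tetracycline and 4 and 4 with it, and H3K27ac marked 9 and 7 without it and 3 and 3 with it. Over all protein-coding genes, fed H3K27ac marked 9760 and 10918 without tetracycline and 9632 and 10731 with it. Within 1 kb of a gene end, H2-Aa, H2-Ab1, H2-DMb1 and H2-Eb1 had H3K27ac in both untreated lists and in no tetracycline list. Within 2.5 kb, however, H2-Ab1 had 3716 and 2573 bp of H3K27ac without tetracycline and 0 and 1052 bp with it. H3K9ac was less even at these genes, for H2-Aa had 1384 and 588 bp without tetracycline and 0 and 0 bp with it, while H2-Ab1 had 764 and 566 bp without it and 985 and 546 bp with it. Ciita, the regulator of the class, was marked in no list. Of 15 immune cell markers, 4 and 4 had H3K9ac without tetracycline and 3 and 3 with it, and 8 and 8 had H3K27ac without it and 2 and 5 with it. Ptprc and Ms4a1 had neither mark in any fed list. More untreated lists had H3K9ac at 5 of the 15 markers and more tetracycline lists at 3. Gzma, Gzmb and Cd8a, genes of cytotoxic lymphocytes, had H3K27ac in both untreated lists alone. Other markers differed, for H3K27ac lay on the H3K9ac region of Cd79a in all 4 fed lists. On the region of Nkg7 and that at the upper-coordinate end of Cd3g it lay in both untreated lists and tetracycline list 2. Whether immune cells in the crypt preparation had a part in the counts of the defence and class II genes was not tested.

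Of 16 genes for microbial metabolites and the aryl hydrocarbon receptor (AhR), 7 and 8 were marked without tetracycline and 7 and 7 with it. Slc5a8 (chromosome 10, 88885992 to 88929515) was the gene of this list that parted by state, with 818 and 510 bp without tetracycline and 0 and 0 bp with it. Its H3K27ac was present in both untreated lists and in tetracycline list 2, and no fasted H3K9ac list marked it. With the top peaks alone it was marked in untreated list 1 only. Slc16a1, another monocarboxylate carrier, and Ahr were marked in all 4 lists, and Cyp1a1, an AhR target, in none. Around the RefSeq start site of Cyp1a1, however, a peak lay within 1 kb in untreated list 1 and in both tetracycline lists. Of 21 microbial sensors, 13 and 14 were marked without tetracycline and 13 and 13 with it. Of 21 interferon response genes, 10 and 16 were marked without it and 11 and 12 with it, and of 16 Paneth and antimicrobial genes 3 and 7 without it and 5 and 7 with it.

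Genes of metabolism and drug response gave like counts in the 2 states. Of 77 mitochondrial ribosome genes, a machine related to the bacterial ribosome that tetracycline blocks, 66 and 70 were marked without tetracycline and 64 and 70 with it. Of 24 genes of mitochondrial and amino acid stress, 16 and 21 were marked without it and 17 and 20 with it, and Atf4 was marked in all 4 lists. Xenobiotic metabolism gave 12 and 16 of 24 genes without it and 13 and 15 with it. Fat absorption and oxidation gave 20 and 23 of 24 genes without it and 21 and 23 with it. Circadian clock genes gave 14 of 19 in each of the 4 lists. These shares differed between lists 1 and 2 by as much as or more than between states.

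Of 12 genes of bile acids and FGF15, 2 and 8 were marked without tetracycline and 3 and 7 with it. Malrd1, known as Diet1 and linked to FGF15 release from enterocytes (chromosome 2, 15526479 to 16255557), was the tetracycline-only gene among the 18 lists, with 0 and 0 bp without tetracycline and 637 and 595 bp with it. It had H3K27ac in all 4 fed lists and H3K9ac in all 4 fasted lists. With the top peaks alone it was marked in tetracycline list 1 only. Fgf15 was marked in tetracycline list 2 alone. Of 14 crypt stem cell genes, 4 and 10 were marked without it and 6 and 9 with it. Olfm4 was marked in list 2 of each state, and Lgr5 in no list. Of 31 histone acetylation enzymes, 22 and 27 were marked without it and 25 and 27 with it.

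**Figure D4:**
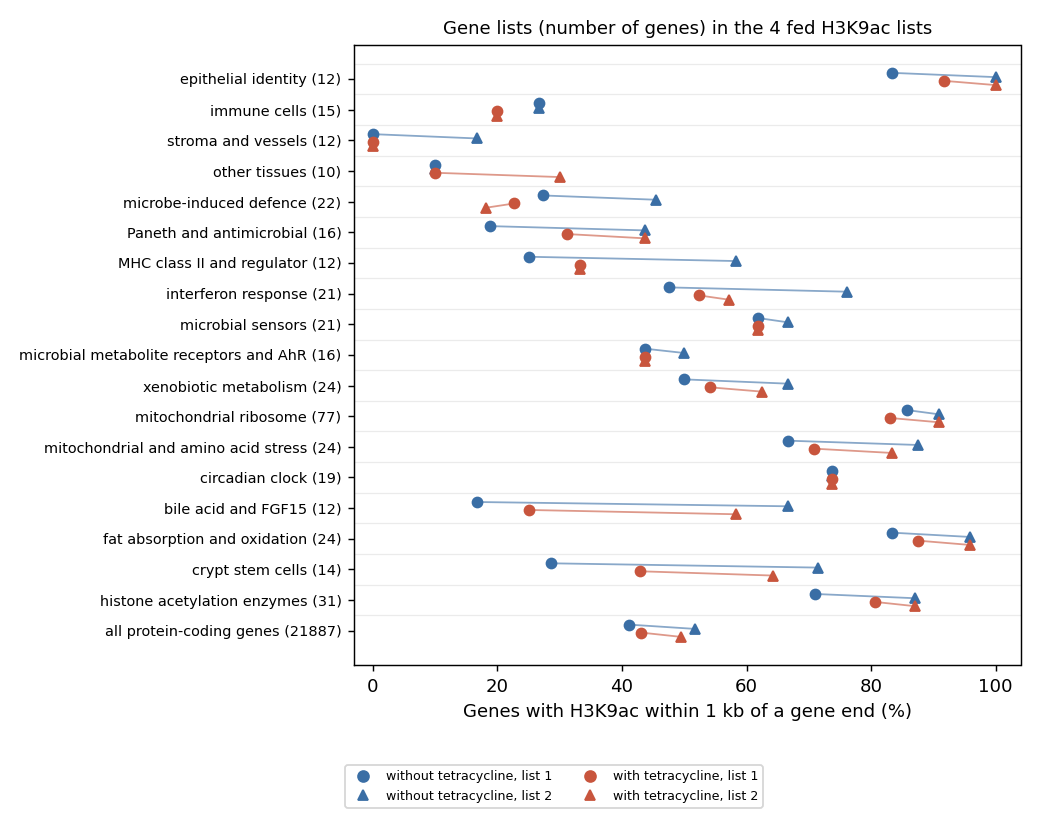
Share of the genes of 18 lists and of all protein-coding genes (%) with an H3K9ac peak within 1 kb of a gene end in each of the 4 fed lists, the number of genes in brackets, each point 1 list and each line joining the lists of a state. The untreated pair lies to the right of the tetracycline pair for microbe-induced defence (27.3% and 45.5% against 22.7% and 18.2%), and by 1 gene for immune cells, while for most other lists the list number moves the points more than tetracycline does.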

How the data were processed

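CUT&Tag peak lists were used as deposited, 2 for each of 8 samples. The authors' lists give position, a MACS peak name and a score of no stated unit, at least 50, which served here for ranks and filters inside 1 list. Their names call them downsampled. FastQC, Bowtie, SAMtools and mm10 appear per the submitters' processing notes, and the peak caller's version, cutoff and use of the IgG libraries are not given in the sources used here. Read depth is unknown, so no interval is given.

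Peaks on chromosomes 1 to 19, X and Y were merged where they overlapped by at least 1 bp. Genes were 21887 protein-coding RefSeq genes (GRCm38.p6), marked by a peak within 1 kb of either end. Extent was tested by exact permutation of the 4 lists, with Benjamini-Hochberg adjustment over 5 tests. The list number comes from the file names. Python 3.11.15, numpy 2.4.6, scipy 1.17.1, pandas 2.3.3 and matplotlib 3.10.9 were used. The merging code was checked on simulated lists with planted loci, which does not measure how many calls are false.

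Named genes of each direction were the 10 with the highest lower score percentile over the 2 lists of their state. In the same ranking, up to 5 were added that had fed H3K27ac in at least 1 list of the same state and none of the other. Up to 5 more had fasted H3K9ac in both lists of the same state and neither of the other. Called members of 18 gene lists (382 genes, all matched) and 12 further genes taken for their role were named too. Regions away from gene ends were ranked alike, up to 3 of each kind. Other genes of the lists were chosen after their values were seen. Members and lists were chosen with earlier results of these data known. Alternatives were the same number of top peaks in each list (17249), the upper 0.5 by score, peaks of at least 500 bp, all sequences, a distance of 2.5 kb, the start site alone, bridged gaps, and leaving out lists.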

Additional observations from a re-analysis of the deposited data

How the results depend on the processing

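The calls depended on peak selection. With the 17249 top peaks of each list, tetracycline-only regions numbered 514 and untreated-only regions 676, so the order of the 2 counts turned, and untreated-only genes numbered 293. The log2 difference in covered length became -0.046 and that in marked genes -0.089. With the 0.5 of highest score in each list, the regions numbered 509 and 331. With peaks of at least 500 bp, tetracycline-only regions numbered 702 and the difference in marked genes was -0.030. With start sites alone it was -0.012, and tetracycline-only genes numbered 96. Of the 160 tetracycline-only genes, 40 were kept with top peaks, 43 with the upper 0.5, 100 with the width limit, 103 with 2.5 kb and 70 with start sites, and of the 179 untreated-only genes 90, 49, 143, 121 and 110. Of the comparisons that left out no list, 4 turned the direction and 6 moved a count by more than 1.5 times. The other 51 kept the direction or, for counts, stayed within 1.5 times. These 51 included the block by list number, the use of all sequences and the defence gene alternatives, also those where the states met or overlapped. Some sizes moved: the share at gene ends to -3.05 points with top peaks, peak number to 0.13 and length to 0.084 with peaks of at least 500 bp, and marked genes to 0.022 with 2.5 kb. Leaving out 1 list, or the pair of 1 number, gave -0.50 to 1.08 for peak number, -0.45 to 0.78 for length, -19.8 to 5.78 points for gene ends, -0.16 to 0.17 for genes and -0.084 to 0.060 for width. It gave 1413 to 37764 tetracycline-only regions, 1619 to 35198 untreated-only regions, 307 to 1611 tetracycline-only genes and 367 to 1923 untreated-only genes, since fewer lists make a looser rule. With the list number as a block, the differences were again 0.29, 0.17, -7.03, 0.0012 and -0.012. They could not change, for with 1 list per state and number the block gives the same mean difference. The labels do not say that the numbers pair lists. Unknown depth limits every count.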
